A study of Mus musculus with 19 samples.

Results

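The transcription factor genes that mark sensory neurons of the dorsal root ganglion were followed through 4 groups of mice: Isl1, Isl2, Pou4f1, Pou4f2, Pou4f3, Prdm12, Drgx, Tlx2, Tlx3 and Runx1. All 10 genes named for this purpose were found among the 36682 genes of the deposited table of counts and FPKM, 9 by their symbol and Drgx by its older symbol Prrxl1. The data were bulk RNA sequencing of L3 to L5 ganglia, taken from the side of the operated knee in surgical mice and pooled within a mouse, so that 1 library stands for 1 mouse. All 19 mice were male and homozygous for the MaFIA transgene (macrophage Fas-induced apoptosis), in which the Csf1r promoter drives a Fas-based suicide receptor in macrophages and other myeloid cells. The dimerizing drug AP20187 triggers that receptor. Every group carried the transgene, so effects of the drug that need the receptor and effects that do not cannot be told apart in these groups.

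The groups were DMM AP20187 (n = 5), DMM vehicle (n = 5), naive AP20187 (n = 4) and naive vehicle (n = 5). DMM is surgical destabilization of the medial meniscus, a model of knee osteoarthritis, and DMM mice were studied 8 weeks after surgery. Naive mice were matched to them in age, which the labels do not give in weeks. Drug or vehicle was injected into the peritoneum daily on 5 consecutive days. The design asks whether AP20187 altered the ganglion transcriptome with and without osteoarthritis, and here it was read out in the genes of neuronal identity.

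These factors act in steps of sensory neuron development and most stay on in the adult ganglion. Pou4f1 (Brn3a) and Isl1 are expressed in nearly all newborn sensory neurons and together turn off earlier programmes and turn on the sensory one, and Pou4f2 and Pou4f3 are the close relatives of Pou4f1. Prdm12, a chromatin regulator needed for the birth of pain-sensing neurons, Drgx, a paired-type homeodomain protein of the spinal pain circuit, and Tlx2 and Tlx3, homeodomain proteins of the T-cell leukaemia homeobox family, are tied to the nociceptive lineage. Runx1, a Runt-domain factor, selects the non-peptidergic nociceptors, and it is also a central regulator of blood formation.

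RefSeq promoters (build GRCm38.p6) were at hand for 8 of the 10 genes, with 9 starts since Runx1 has a distal and a proximal one. The stretch shown is the 250 bases before the annotated start, on the strand of the gene. Short words were searched on both strands, namely TAATTA, a homeodomain core, TGTGGT, a Runt core, and CAGATG, an E-box. The general promoter element CCAAT and the cAMP response element TGACGTCA were added after the sequences had been read. Matches are in capitals, on either strand, and none overlaps another. The LIM-homeodomain relatives Isl1 and Isl2 are shown because Isl2 passed the test in DMM mice and Isl1 did not, Tlx3 because its fall in DMM mice passed the test in each of 20 alternative settings, and Runx1 because it was set apart from the rest.

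Isl1, chr13:116309689-116309938, minus strand: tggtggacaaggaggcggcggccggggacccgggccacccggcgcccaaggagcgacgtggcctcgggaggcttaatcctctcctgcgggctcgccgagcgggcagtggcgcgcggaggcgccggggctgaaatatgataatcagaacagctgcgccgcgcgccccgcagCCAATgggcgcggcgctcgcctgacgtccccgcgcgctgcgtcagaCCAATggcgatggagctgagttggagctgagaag
Isl2, chr9:55540899-55541148, plus strand: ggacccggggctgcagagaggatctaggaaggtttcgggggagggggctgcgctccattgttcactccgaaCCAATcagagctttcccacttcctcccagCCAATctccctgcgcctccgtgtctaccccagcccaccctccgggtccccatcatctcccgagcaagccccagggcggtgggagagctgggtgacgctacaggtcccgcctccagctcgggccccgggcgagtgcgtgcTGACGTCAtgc
Tlx3, chr11:33203589-33203838, minus strand: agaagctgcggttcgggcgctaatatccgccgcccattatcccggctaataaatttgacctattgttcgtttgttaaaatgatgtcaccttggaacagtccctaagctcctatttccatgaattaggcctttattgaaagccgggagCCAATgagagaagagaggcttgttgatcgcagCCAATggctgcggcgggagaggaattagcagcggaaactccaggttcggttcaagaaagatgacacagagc
Runx1 distal, chr16:92826075-92826324, minus strand: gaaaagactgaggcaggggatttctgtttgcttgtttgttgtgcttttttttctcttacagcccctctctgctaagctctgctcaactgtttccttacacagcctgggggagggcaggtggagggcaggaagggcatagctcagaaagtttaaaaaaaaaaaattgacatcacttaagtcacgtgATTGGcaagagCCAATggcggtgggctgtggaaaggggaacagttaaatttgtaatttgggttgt
Runx1 proximal, chr16:92697330-92697579, minus strand: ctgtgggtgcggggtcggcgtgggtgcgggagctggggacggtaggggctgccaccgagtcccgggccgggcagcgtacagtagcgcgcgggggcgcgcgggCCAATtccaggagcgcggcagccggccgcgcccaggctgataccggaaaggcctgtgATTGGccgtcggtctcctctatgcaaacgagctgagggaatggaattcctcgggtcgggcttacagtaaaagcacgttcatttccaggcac

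The Isl1 and Isl2 windows each held CCAAT at 2 places, as did Tlx3 and both Runx1 starts, so 5 of the 9 windows had it, against 33.9% of all 32851 promoters of that length. TGACGTCA was found in 1 window, that of Isl2, and in 1.55% of all promoters. TAATTA and CAGATG were in 0 of the 9 windows, against 4.84% and 14.4% of all promoters. TGTGGT was in 1 window, that of Drgx, against 14.1%. A match is a description of letters and not a binding site. In base composition the windows ranged from 45.6% GC (Runx1 distal) to 78% GC (Pou4f1), and 7 of 9 lay above the median of all promoters, 52.4%. The proximal Runx1 window was at 67.6% GC with 27 CpG and the distal one at 45.6% with 2 CpG.

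Libraries held 60984830 to 74691396 counts, and the counts of the 10 genes ran from 104 to 14499 per library. All 10 passed the filter on low counts, as did 22778 genes in all. Neuronal markers were detected: none of the 15 pan-neuronal genes, 17 nociceptor genes or 9 large-fibre genes was at or under 3 counts per library in any group. Detection at this floor does not tell tissues apart, since no listed granulocyte, fibroblast or skeletal muscle gene was at it either. Of 7 autonomic neuron genes, Phox2a and Hand2 were at that floor in both vehicle groups, and 3 of the 7 passed the filter. The list was not absent: it summed to 87.8 to 153.8 CPM in naive vehicle mice, nearly all of it Th (118.2 CPM), the tyrosine hydroxylase gene, which some sensory neurons also express, with Ddc at 1.11 CPM. The DMM vehicle mouse 64 stood apart from its group, with a summed pan-neuronal level of 6588 CPM (counts scaled to library size after TMM normalization) against 14560 to 18060 CPM in the other 4. Its summed level of 13 granulocyte genes was 8260 CPM, against 438.2 to 2886 CPM. It was also the highest of the 5 for megakaryocyte and erythroid genes (26510 against 1578 to 11420 CPM), fibroblast genes (6943 against 1247 to 4433 CPM) and macrophage and monocyte genes (890.6 against 182.3 to 502.2 CPM). Mice of the DMM vehicle group are numbered 32 to 34 and 63 to 64, while the DMM AP20187 mice are numbered 58 to 62. No label says what these sample numbers stand for.

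Levels between genes were compared in FPKM, which is scaled to gene length. In naive vehicle mice Isl2 was the most abundant factor at 67.8 ± 12.7 FPKM (SD, n = 5), followed by Prdm12 at 40.8 ± 13.04 FPKM. Pou4f1 (29.6 ± 7.85), Tlx2 (25.9 ± 5.51), Tlx3 (21.6 ± 6.07), Isl1 (19.8 ± 3.06) and Drgx (19.3 ± 5.07) came next in FPKM. The lowest were Pou4f3 at 7.89 ± 2.08, Runx1 at 7.14 ± 1.51 and Pou4f2 at 5.14 ± 1.66 FPKM. Isl2 exceeded Prdm12 by more than either SD, and so did Drgx over Pou4f3 and Runx1 over Pou4f2, whereas the gap between other neighbours in this order was not larger than both SDs. Isl2 was above Prdm12 in 5 of 5 of these libraries, Tlx3 above Isl1 in 2 of 5 and Isl1 above Drgx in 2 of 5. In DMM vehicle mice the order again opened with Isl2 (48.9 ± 15.4 FPKM, n = 5), Prdm12 and Pou4f1, and closed with Pou4f3, Runx1 and Pou4f2.

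With AP20187 the leading factors could not be ordered. In DMM AP20187 mice Isl2 was at 12.7 ± 6.58 FPKM and Isl1 at 10.6 ± 4.05 FPKM (SD, n = 5), and Isl2 was above Isl1 in 3 of 5 libraries. Prdm12 (9.76 ± 6.82 FPKM) and Pou4f1 (9.22 ± 5.71 FPKM) lay within 1 SD of both. In naive AP20187 mice Isl2 (23.5 ± 12.3 FPKM, n = 4) and Prdm12 (23.3 ± 11.6 FPKM) were level, with Isl2 higher in 2 of 4 libraries. The deposited FPKM of naive AP20187 mice 1, 3 and 4 were lower than their counts imply, by 0.15, 0.147 and 0.118 on the log2 scale, and by no more than 0.008 in any other library. Ratios within a library are free of this shift, and tests of single genes used the counts, except the alternative limma fits on FPKM.

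**Figure D1:**
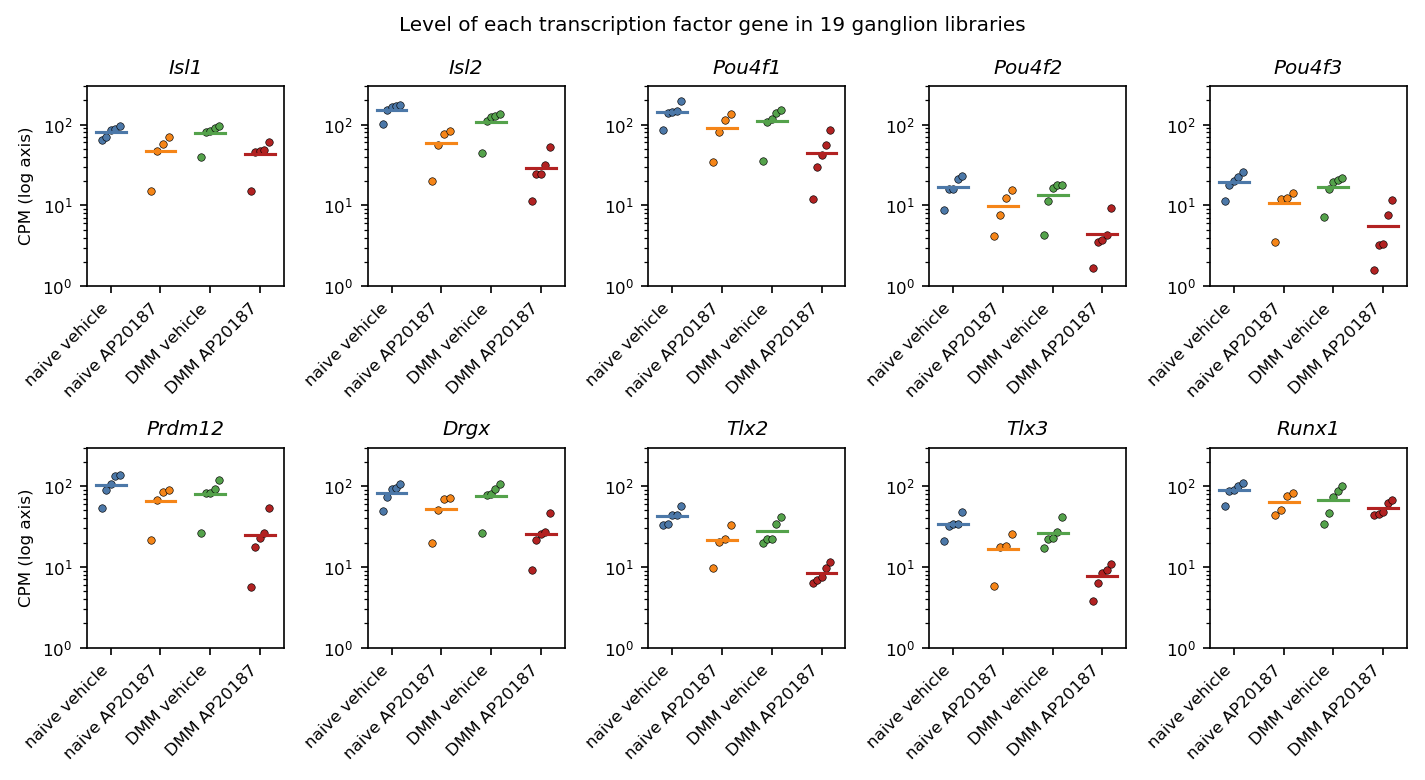
Each panel plots the CPM of 1 factor gene (vertical log axis) in the 4 groups, with 1 point per mouse and a bar at the group mean. For Tlx2 and Tlx3 the 5 DMM AP20187 points lie below all 5 DMM vehicle points, and for Runx1 the groups overlap.

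In DMM mice 8 of the 10 factor genes were lower with AP20187 than with vehicle and passed the test: Tlx2, Tlx3, Isl2, Drgx, Pou4f2, Pou4f3, Prdm12 and Pou4f1. Of all tested genes, 12.4% were called lower in this comparison. The 2 that did not pass were Isl1 and Runx1, and no factor was called higher. The median log2 fold change of the 10 was -1.60, against -0.10 over all tested genes. In ganglia of whole animals, fewer neurons, less RNA per neuron and a larger share of RNA from other cells cannot be told apart.

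Of 15 pan-neuronal genes, 11 were called lower in the same comparison and 4 did not pass, with a median log2 fold change of -1.36 over the 15. Among those called lower were Uchl1 (-1.18 ± 0.27, SE, adjusted p = 0.00635), Prph (-1.37 ± 0.35, adjusted p = 0.0104) and Stmn2 (-0.99 ± 0.27, adjusted p = 0.015). The summed level of the 15 was 2330 to 9010 CPM in DMM AP20187 mice and 6588 to 18060 CPM in DMM vehicle mice, and none of the 15 was at or under the floor. Granulocyte genes moved the other way, with 11 of 13 called higher and a summed level of 17670 to 30640 CPM against 438.2 to 8260 CPM, and none at the floor. In this comparison 11.3% of all tested genes were called higher. Early B lineage genes were lower along with the factors, with 9 of 12 called lower (median log2 fold change -3.94), among them Pax5 (-4.33 ± 0.77, adjusted p = 0.00115) and Rag1 (-6.77 ± 0.88, adjusted p = 0.000117). Their summed level was 54.4 to 119.4 CPM with AP20187 and 171.4 to 231.1 CPM with vehicle, and Rag2 and Igll1 were at the floor with AP20187. Of 12 megakaryocyte and erythroid genes 4 were called lower and 1 higher, and 4 of 12 satellite glia and Schwann cell genes, 3 of 8 skeletal muscle genes and 1 of 3 autonomic neuron genes tested were called lower. Of the remaining lists, 1 of 8 T and NK cell genes and 2 of 6 genes of retina, inner ear and enteric neurons were called higher, and 0 of 6 fibroblast genes and 0 of 17 central neuron and spinal cord genes were called. Of 11 macrophage and monocyte genes, 2 were called higher, Ly6c2 and Mrc1, and 1 lower, the monocyte receptor gene Ccr2 (-2.59 ± 0.56, adjusted p = 0.00426), and none was at the floor. Their summed level was 408.3 to 1202 CPM with AP20187 and 182.3 to 890.6 CPM with vehicle. Csf1r, whose promoter drives the transgene, was at -0.02 ± 0.46 on the log2 scale (adjusted p = 0.982). The part of these lists in the fall of the factor genes was not tested here, beyond the comparison relative to pan-neuronal genes given further on.

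**Figure D2:**
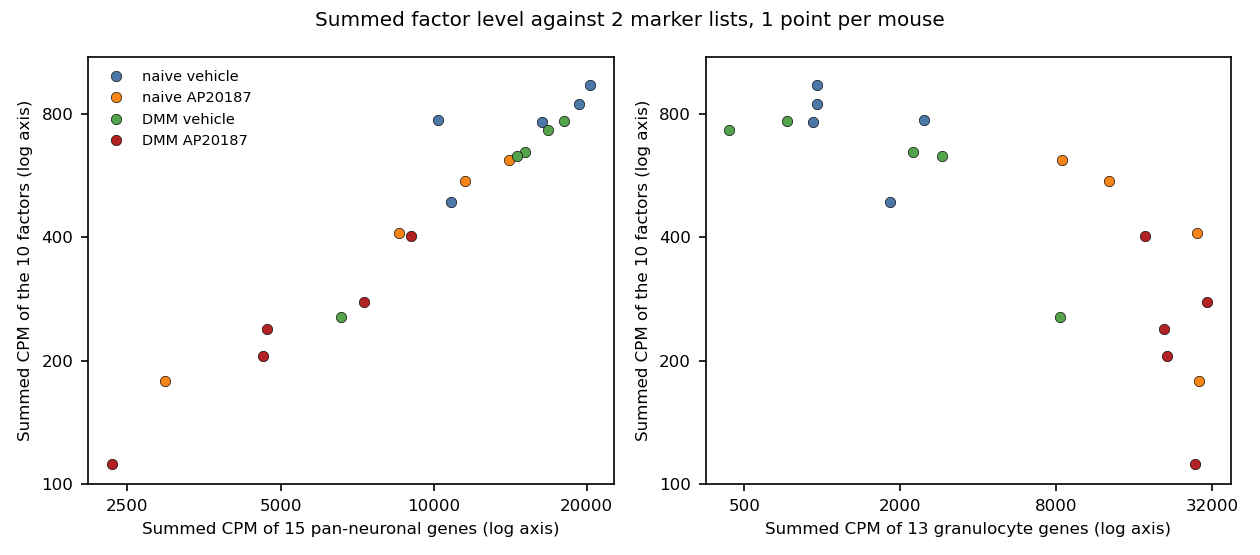
The summed CPM of the 10 factor genes (vertical log axis) is plotted against the summed CPM of 15 pan-neuronal genes (left) and of 13 granulocyte genes (right), with 1 point per mouse coloured by group. The lowest point is DMM AP20187 mouse 58 (111.8 CPM for the factors, 2330 CPM for the pan-neuronal genes), and the lone low DMM vehicle point is mouse 64 (255.1 and 6588 CPM).

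Among the LIM-homeodomain pair, Isl2 fell and Isl1 did not pass the test. Isl2 (ENSMUSG00000032318, GRCm39, chr9:55445956-55453464, plus strand) was at 136.1, 128.4, 109.8, 124.2 and 45.1 CPM in DMM vehicle mice 32, 33, 34, 63 and 64. In DMM AP20187 mice 58 to 62 it was at 11.3, 24.6, 24.8, 52.8 and 31.6 CPM. The groups overlapped only through mouse 64, which lay below AP20187 mouse 61. The log2 fold change was -1.91 ± 0.39 (SE), a 3.75-fold lower level (adjusted p = 0.00327, lower than the vehicle mean in 5 of 5 mice). An opposite-strand gene, Gm17226, overlaps Isl2 but had a mean of 46.5 counts per library. Isl1 (chr13:116434817-116446225, minus strand) was at 96.3, 91.2, 82.1, 81.8 and 39.3 CPM with vehicle and at 15.1, 48.7, 45.5, 60.4 and 47.3 CPM with AP20187. Its log2 fold change was -0.85 ± 0.36 (adjusted p = 0.0908). Without DMM vehicle mouse 64 the Isl1 change was -1.02 and passed the test (adjusted p = 0.0337).

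All 3 POU-domain genes fell. Pou4f1 (chr14:104699112-104705435, minus strand) was at 151.1, 140.9, 116.4, 108.0 and 35.7 CPM in the vehicle mice and at 12.1, 41.5, 29.6, 86.7 and 55.1 CPM in the AP20187 mice. Apart from mouse 64, every vehicle library was above every AP20187 library. The change was -1.29 ± 0.45 on the log2 scale (adjusted p = 0.0456), and the call was lost without any of DMM AP20187 mice 58, 59, 60 or 62 or DMM vehicle mice 32, 33, 34 or 63 (adjusted p = 0.064 to 0.102). The less abundant Pou4f2 (chr8:79159639-79163274, minus strand) was at 4.34 to 17.96 CPM with vehicle and 1.70 to 9.30 CPM with AP20187, a log2 fold change of -1.60 ± 0.45 (adjusted p = 0.0175). Pou4f3 (chr18:42527604-42530314, plus strand) was at 7.10 to 21.6 CPM and 1.58 to 11.7 CPM, a change of -1.61 ± 0.47 (adjusted p = 0.02). The Pou4f3 call was lost without DMM AP20187 mouse 59 (adjusted p = 0.0507) or mouse 60 (adjusted p = 0.051).

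The nociceptive regulators Prdm12 and Drgx also fell. Prdm12 (chr2:31530049-31545807, plus strand) was at 81.5, 118.5, 91.4, 81.7 and 26.1 CPM in the DMM vehicle mice and at 5.67, 23.0, 17.6, 53.1 and 26.1 CPM in the AP20187 mice. The lowest vehicle value, mouse 64, was level with AP20187 mouse 62. The Prdm12 change was -1.67 ± 0.49 (adjusted p = 0.0218), and it was lost without DMM AP20187 mouse 60 (adjusted p = 0.053) or DMM vehicle mouse 33 (adjusted p = 0.0567). An opposite-strand gene, Gm13425 (chr2:31523465-31530601), overlaps the start of Prdm12 and had a mean of 3895 counts per library. Its log2 fold change was -1.68 and did not pass edgeR's test (adjusted p = 0.0576). Whether the counting used the strand is not stated, so reads of these genes cannot be told apart where they overlap. Drgx (listed as Prrxl1, chr14:32321364-32371203, plus strand) was at 91.6, 107.5, 77.7, 79.0 and 26.0 CPM with vehicle and at 9.05, 25.5, 21.2, 45.8 and 26.8 CPM with AP20187, a log2 fold change of -1.57 ± 0.41 (adjusted p = 0.0122).

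Tlx2 and Tlx3 gave the smallest adjusted p of the 10 and were the 2 genes whose groups did not overlap, which was true of 4.18% of all tested genes in this direction. Tlx2 (chr6:83045305-83047274, minus strand) was at 34.2, 22.1, 22.1, 41.5 and 20.02 CPM in DMM vehicle mice 32, 33, 34, 63 and 64. It was at 7.52, 11.5, 6.27, 9.72 and 6.93 CPM in DMM AP20187 mice 58 to 62. Mouse 64 was close to mice 33 and 34 here, unlike for the islet and POU genes. The change was -1.74 ± 0.29 on the log2 scale, 3.34-fold lower (adjusted p = 0.000727, below in 5 of 5 mice). Tlx3 (chr11:33150752-33153589, minus strand) was at 27.1, 21.9, 22.9, 41.7 and 17.4 CPM with vehicle and at 3.80, 9.20, 8.30, 10.9 and 6.32 CPM with AP20187. Its change was -1.77 ± 0.35 (adjusted p = 0.00251). For both genes DMM vehicle mouse 63 was the highest library.

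Runx1 (chr16:92398354-92623037, minus strand) did not pass the test. It was at 72.6, 99.3, 87.3, 46.0 and 34.1 CPM in the DMM vehicle mice and at 44.1, 47.9, 45.6, 61.4 and 66.6 CPM in the AP20187 mice. The vehicle mice 63 and 64 lay within or below the AP20187 range, and mice 32 to 34 above it. The log2 fold change was -0.35 ± 0.26 (95% interval -0.91 to 0.20, adjusted p = 0.355). Since Runx1 is also expressed in blood cells, 13 transcription factors of the blood lineages were read beside it. Of these, 5 of 13 were called higher, as were 11.3% of all tested genes. The 5 included the myeloid regulators Spi1 (2.60 ± 0.58 on the log2 scale, adjusted p = 0.00501), Cebpe (3.01 ± 0.67, adjusted p = 0.00475) and Gfi1 (3.20 ± 0.66, adjusted p = 0.00327), and the lymphoid and myeloid regulator Ikzf1 (2.53 ± 0.52, adjusted p = 0.00316). The summed level of the 13 was 434.8 to 893.2 CPM in DMM AP20187 mice and 47.7 to 391.9 CPM in DMM vehicle mice, with none at the floor. The share of the Runx1 RNA that comes from blood cells was not tested.

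The count of 8 changed with the vehicle mice used. The subsets differ both in the mice and in their number, and these cannot be told apart. Against mice 32 to 34 alone, all 10 factors were called lower, as were 18.8% of all genes tested in that fit. Against mice 63 and 64 alone, 2 factors were called, Tlx2 and Tlx3, and 2.02% of all genes. With all 5, limma voom with sample weights also called all 10, and 25% of all genes lower. Leaving out 1 library at a time gave 5 to 9 calls while 5.95% to 18.5% of all genes were called lower, with 5 without DMM AP20187 mouse 60 (7.2% of all genes called lower) and 9 without DMM vehicle mouse 64 (18.5%). Tlx2, Tlx3, Isl2, Pou4f2 and Drgx were called in each of those 10 fits.

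In naive mice all 10 factor genes were also lower on average with AP20187 than with vehicle, but only Isl2 and Tlx2 passed the test. Of all tested genes, 2.57% were called lower. The median log2 fold change of the 10 was -0.76, against -0.07 over all tested genes. Isl2 was at 165.4, 170.3, 100.9, 150.9 and 175.3 CPM in naive vehicle mice 1 to 5 and at 55.1, 20.2, 75.8 and 84.4 CPM in naive AP20187 mice 1, 3, 4 and 5. Isl2 was the 1 factor whose groups did not overlap, which was true of 6.15% of all tested genes in this direction. Its change was -1.37 ± 0.42 on the log2 scale (SE, adjusted p = 0.0412). Tlx2 was at 43.4, 44.1, 33.1, 33.9 and 55.9 CPM with vehicle and at 20.3, 9.73, 22.4 and 33.2 CPM with AP20187, so that mouse 5 reached the lower vehicle values. The Tlx2 change was -0.97 ± 0.30 (adjusted p = 0.0448).

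The other 8 changes in naive mice were -1.02 ± 0.37 for Tlx3 (adjusted p = 0.0816), -0.88 ± 0.49 for Pou4f3, -0.77 ± 0.47 for Pou4f2, -0.76 ± 0.38 for Isl1, -0.65 ± 0.51 for Prdm12, -0.65 ± 0.43 for Drgx, -0.63 ± 0.48 for Pou4f1 and -0.48 ± 0.28 for Runx1. AP20187 mouse 3 was the lowest of the 9 naive mice for each of the 10 factors, with a summed factor level of 178.2 CPM against 410.0 to 616.5 CPM in the other 3 AP20187 mice. None of the 15 pan-neuronal genes passed the test, and their median change was -0.82, with a summed level of 2964 to 14070 CPM against 10220 to 20290 CPM. Granulocyte genes were at 8404 to 28540 CPM against 916.8 to 2475 CPM, with 12 of 13 called higher, as were 8.61% of all tested genes. Early B lineage genes were at 78.8 to 157.3 CPM against 186.3 to 229.2 CPM, with 8 of 12 called lower (median -3.25) and Rag1, Rag2, Vpreb3 and Igll1 at the floor with AP20187. Macrophage and monocyte genes were at 526.4 to 954.1 CPM against 111.2 to 539.1 CPM, with 4 of 11 called higher and 1, Ccr2, lower. Skeletal muscle genes were at 1712 to 2623 CPM in the naive AP20187 mice and 14.8 to 476.4 CPM in the naive vehicle mice, with 4 of 8 called higher. Of 17 central neuron and spinal cord genes tested, 5 were called lower (median -1.52), and 3 were also called lower relative to pan-neuronal genes, while 5 of the 20 listed were at the floor with AP20187. Their summed level was 65.0 to 124.4 CPM with AP20187 and 51.9 to 136.2 CPM with vehicle. Of the blood lineage transcription factors 4 of 13 were called higher, as was 1 of 8 T and NK cell genes, and 1 of 3 autonomic neuron genes tested was called lower. No gene was called in the lists of megakaryocyte and erythroid, satellite glia and Schwann cell, fibroblast, or retina, inner ear and enteric genes. The part of these lists in the factor levels was not tested.

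Tlx3 also passed with DESeq2 (6.54% of all genes called lower), with limma on log2(FPKM + 1) or log2(FPKM + 0.1) (9.97% and 10.2%) and with limma voom and sample weights (6.23%). Both fits on FPKM use the deposited values of naive AP20187 mice 1, 3 and 4, which were lower than their counts imply. That shift lowers the estimates of these fits. Both naive calls were near the threshold, and each was lost on leaving out any of several libraries. The estimates kept their sign, at -1.63 to -1.10 for Isl2 and -1.29 to -0.75 for Tlx2. No factor was called without naive AP20187 mouse 1 or 3, or without naive vehicle mouse 1, 2 or 5, fits that called 0.631% to 1.11% of all genes lower. Without naive AP20187 mouse 4 the 1 call was Isl2, without naive vehicle mouse 4 it was Tlx2, and without naive AP20187 mouse 5 the calls were Isl2, Tlx2 and Tlx3, where 2.51%, 2.6% and 4.21% of all genes were called lower.

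**Figure D3:**
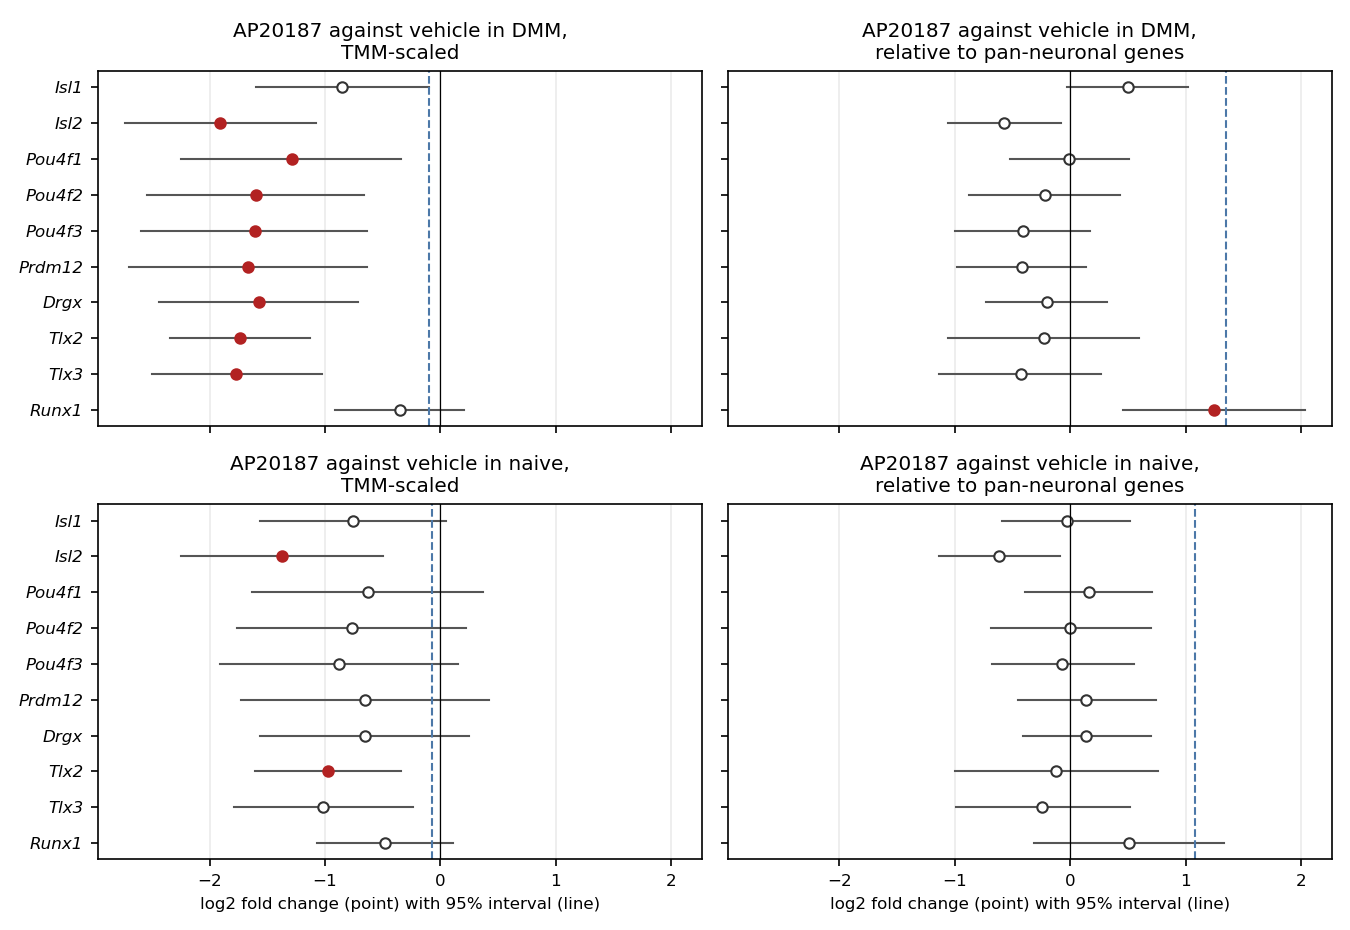
Points give the log2 fold change of AP20187 against vehicle for each factor and lines its 95% interval, in DMM mice (top) and naive mice (bottom), on the TMM scale (left) and relative to pan-neuronal genes (right). Filled points passed the test, the solid line is 0 and the dashed line is the median of all tested genes, which moves from -0.10 to 1.35 in DMM mice and from -0.07 to 1.08 in naive mice between the scales.

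Surgery alone gave no call among the factors. In vehicle mice, 0 of the 10 differed between DMM and naive by edgeR's test, as did 0% of all tested genes, and 377 genes had an unadjusted p under 0.05. Of the factors, Tlx2 alone had one, with a log2 fold change of -0.59 ± 0.28 (95% interval -1.17 to 0.00, unadjusted p = 0.0499). The estimates of the 10 ran from -0.59 for Tlx2 to -0.04 for Isl1. DESeq2 and limma likewise called 0 of the 10. Against naive vehicle mice, DMM vehicle mice 63 and 64 taken alone gave 1 call, a lower Runx1 (-1.14, adjusted p = 0.0485), in a fit that called 0.442% of all genes lower.

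With AP20187 on both sides, DMM mice had lower Tlx2 than naive mice (-1.35 ± 0.30 on the log2 scale, adjusted p = 0.0452), and no other factor passed. Of all tested genes, 0.439% were called lower. Levels of Tlx2 were 6.27 to 11.5 CPM in DMM AP20187 mice and 9.73 to 33.2 CPM in naive AP20187 mice, which overlap through naive mouse 3. Other lists differed between these groups as well. Skeletal muscle genes were at 18.6 to 143.1 CPM in DMM AP20187 mice and 1712 to 2623 CPM in naive AP20187 mice, with 2 of 8 called lower (median -4.80), and 3 of 17 central neuron and spinal cord genes were called higher and 1 of 9 large-fibre genes lower. Their part in the Tlx2 difference was not tested. The other 9 estimates ran from -1.39 ± 0.51 for Prdm12 (adjusted p = 0.183) to -0.13 ± 0.38 for Isl1 (adjusted p = 0.894). The Tlx2 call was lost without DMM AP20187 mouse 58, 59, 60 or 62 and without naive AP20187 mouse 1, 4 or 5, while limma voom with sample weights called 8 of the 10 lower and 7.41% of all genes. The effect of AP20187 was not shown to differ between DMM and naive mice for any factor. The interaction called 0 of the 10 and 0.114% of all tested genes. In edgeR's fit Tlx2 came nearest (-0.77 ± 0.41, 95% interval -1.62 to 0.09, unadjusted p = 0.076, adjusted p = 0.713). None of the 10 had an unadjusted interaction p under 0.05 in that fit. In limma voom with sample weights 6 of the 10 did, led by Prdm12 (-1.63, unadjusted p = 0.00605, adjusted p = 0.202), Drgx (-1.34, unadjusted p = 0.00606) and Pou4f3 (-1.45, unadjusted p = 0.00673). The share of all genes under that p in the voom fit is not given here, so the 6 cannot be called particular to the factors. For AP20187 in DMM mice the voom fit called 46.9% of all genes, against 23.8% in edgeR's fit. After adjustment, DESeq2 and limma called none. The comparisons share groups, so their values are not independent.

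The factors were next set against other neuronal genes by scaling each library to the geometric mean of the 15 pan-neuronal genes. On this scale Runx1 was called higher in DMM mice and no factor was called lower. In DMM mice 0 of 10 were called lower with AP20187, as were 0.294% of all tested genes, and the median of the 10 was -0.22. At an unadjusted p under 0.05 there were 2 of the 10, Isl2 and Runx1, beside 12285 of the 22778 tested genes. Pou4f1 was at -0.01 ± 0.25 (95% interval -0.52 to 0.51), Drgx at -0.20 ± 0.25, Tlx2 at -0.23 ± 0.40 and Tlx3 at -0.43 ± 0.34. The extremes were Isl2 at -0.57 ± 0.23 (95% interval -1.06 to -0.08, adjusted p = 0.0578) and Runx1 at 1.25 ± 0.38 (adjusted p = 0.0235).

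Runx1 was thus called higher relative to pan-neuronal genes, but so were 36.7% of all tested genes, whose median was 1.35. Against that median Runx1 lay at -0.10. The call was lost without DMM AP20187 mouse 58, where the share of all genes called higher fell to 0.455%, and without DMM vehicle mouse 32 (0.19%), 33 (0.168%), 34 (0.119%) or 63 (0.0529%). Without DMM vehicle mouse 64 that share was 63.5%, and Runx1 was called. Isl1 was at 0.50 ± 0.25 (adjusted p = 0.107) on this scale. With 2 other choices of reference genes the calls moved. Without Nefl, Nefm, Map2 and Thy1 in the list, Isl2 was also called, as lower (-0.57, adjusted p = 0.0436), where 0.325% of all genes were called lower and 41.4% higher. With Avil and Prph alone as reference Isl1 was called higher (0.69, adjusted p = 0.0208) beside Runx1, as were 58% of all genes.

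In naive mice the change relative to pan-neuronal genes called 0 of the 10 factors and 7.28% of all tested genes, a share that ran from 0.0837% to 27% on leaving out 1 library. The lowest was again Isl2, at -0.62 ± 0.25 (95% interval -1.14 to -0.09, adjusted p = 0.0899), and the median of the 10 was -0.01. The highest was Runx1 at 0.51 ± 0.39, below the median of all genes, 1.08. Between DMM and naive vehicle mice the same scale called 0 factors and 0% of genes. Between DMM and naive AP20187 mice it called 0 factors and 0.0307% of genes, with the lowest estimate at -0.80 ± 0.28 for Prdm12 (adjusted p = 0.403) and the highest at 0.67 ± 0.27 for Isl1. The interaction on this scale called 0 factors and 0.0176% of genes.

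Within gene families, the ratio of the paralogs does not depend on how a library is scaled. Isl2 and Isl1 are close LIM-homeodomain relatives, and the FPKM ratio of Isl2 to Isl1 was 3.13, 3.53, 2.59, 4.27 and 3.72 in naive vehicle mice 1 to 5. In naive AP20187 mice it was 2.14, 2.44, 2.36 and 2.15. DMM vehicle mice had 2.55, 2.54, 2.41, 2.74 and 2.07, and DMM AP20187 mice had 1.35, 0.911, 0.983, 1.58 and 1.21. Every AP20187 mouse lay below every vehicle mouse of the same surgery group, and DMM AP20187 mouse 61, the highest of its group, was below the lowest of all other mice, DMM vehicle mouse 64.

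The log2 count ratio of Isl2 to Isl1 was lower with AP20187 by 1.05 in DMM mice (means -0.61 and 0.44), and the two-sided exact permutation p was 0.00794, the smallest that 5 against 5 allows. In naive mice the difference was -0.58 (exact permutation p = 0.0159). Between DMM and naive mice it was -0.47 with vehicle (exact permutation p = 0.0159), where the groups overlapped, and -0.94 with AP20187 (exact permutation p = 0.00794). In all, 20 ratio tests were made, and after adjustment over them these 4 exact permutation p became 0.0529, 0.0636, 0.0636 and 0.0529, so none passed. The smallest p that the group sizes allow is 0.00794. Over 20 tests no ratio could therefore pass unless several were at or near that value, so the adjusted result decides little. Leaving out any 1 library kept the sign of each difference, with -1.16 to -0.96 in DMM mice and -0.68 to -0.50 in naive mice.

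Of the other family ratios, 1 separated DMM mice by treatment. Pou4f3 to Pou4f1 was 0.279, 0.282, 0.328, 0.284 and 0.386 in DMM vehicle mice and 0.252, 0.153, 0.218, 0.264 and 0.271 in DMM AP20187 mice, which did not overlap (difference -0.44 on the log2 scale, exact permutation p = 0.00794, adjusted p = 0.0529). In naive mice this ratio overlapped between AP20187 (0.199 to 0.298) and vehicle (0.242 to 0.296). Tlx3 to Tlx2 had group means of 0.785 to 0.969 and Pou4f2 to Pou4f1 of 0.156 to 0.179. For these and for Pou4f3 to Pou4f2 the log2 differences ran from -0.23 to 0.23, and the groups compared overlapped.

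**Figure D4:**
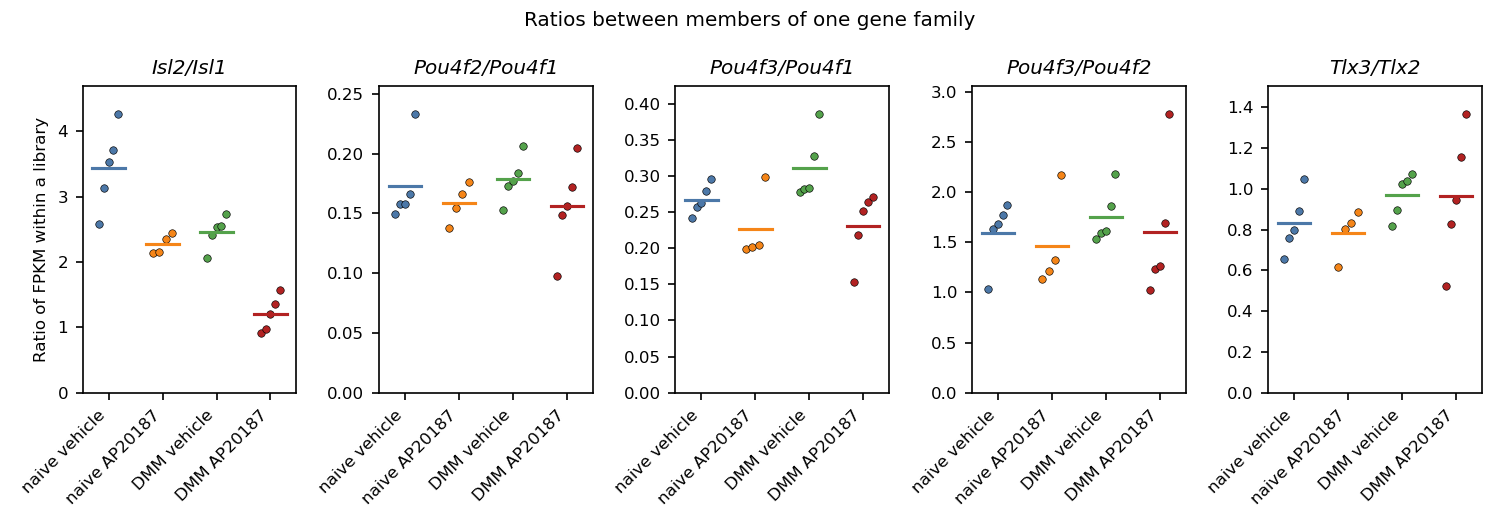
Each panel plots the ratio of FPKM of 2 genes of a family within a library (vertical axis from 0), with 1 point per mouse and a bar at the group mean, in the 4 groups. The Isl2 to Isl1 ratio has group means of 3.45, 2.27, 2.46 and 1.21 from left to right, and the other ratios overlap between most groups.

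Other regulators of the sensory lineage were read from a list chosen by their role. Of a list of 38 such genes, 37 were found and 35 tested. With AP20187, 8 of 35 were called lower in DMM mice (median log2 fold change -0.77), where 12.4% of all genes were, and 1 of 35 in naive mice (median -0.44), where 2.57% were, and none was called higher in either. Relative to pan-neuronal genes, 0 of 35 were called lower in DMM mice and 4 higher (median 0.60), where 36.7% of all genes were called higher. The 4 with the smallest adjusted p were the LIM cofactor Ldb2 (-1.19 ± 0.25, SE, adjusted p = 0.00365), the glial and neural crest factor Sox10 (-0.77 ± 0.20, adjusted p = 0.0117), Prdm8, a relative of Prdm12 (-1.75 ± 0.52, adjusted p = 0.0222), and the zinc-finger gene Tshz2 (-1.16 ± 0.34, adjusted p = 0.0223), all in DMM mice. Sox10 also stands in the glial list. The homeobox gene Hmx1 and the ETS factors Etv1 and Etv5 were also among those called lower in DMM mice. The 1 call in naive mice was Neurog1, an early neurogenic factor at the floor of 3 counts per library in naive AP20187 mice.

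Of 17 nociceptor genes, 10 were called lower with AP20187 in DMM mice and 7 did not pass (median -1.67). Relative to pan-neuronal genes, 1 of the 17 was called lower and 1 higher (median -0.35). Among the 10 were Gfra2, a co-receptor of the non-peptidergic class (-1.82 ± 0.44, adjusted p = 0.00758), the ATP receptor P2rx3 (-1.74 ± 0.45, adjusted p = 0.011) and the receptor Mrgprd (-2.38 ± 0.62, adjusted p = 0.0119), whose expression is known to need Runx1. In naive mice 0 of 17 were called (median -1.07). Of 9 genes of large-fibre neurons, 3 were called lower in DMM mice (median -1.05), namely Ntrk2, Kcns1 and Cntnap2. In naive mice 0 of 9 were lower and 1 was higher, the calcium-binding protein gene Pvalb (2.10 ± 0.38, adjusted p = 0.0027), which skeletal muscle also expresses.

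The genes whose profile over the 19 libraries lay nearest to each factor were found by likeness. This was the root mean square difference of log2 CPM after each gene was centred, over 14482 genes with a mean of at least 1 CPM. The nearest gene was Dpysl5 for Prdm12 (0.151 log2 units), Spock3 for Isl1 (0.134), Celf6 for Isl2 (0.248), Insm2 for Pou4f1 (0.159), Nedd4l for Pou4f2 (0.20), Crmp1 for Drgx (0.139) and Abr for Runx1 (0.117). For Pou4f3, Prkar1b and Lrp11 were level at 0.212. For comparison, the median distance of all genes was 1.24 from Prdm12 and 0.648 from Runx1, which itself varied least (SD 0.494 log2 units). Tlx2 and Tlx3 were farther from any gene. The nearest to Tlx2 was Tlx3 at 0.317, and the nearest to Tlx3 was Pcsk1n at 0.311.

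Among themselves, the closest factors were Pou4f1 and Drgx at 0.193 log2 units, with Pou4f2 at 0.219 from Drgx and 0.254 from Pou4f1, and Prdm12 at 0.263 from Pou4f1. Isl1 lay at 0.604 from its paralog Isl2, farther than from Drgx (0.473). Runx1 stood at 0.572 or more from each of the other 9. These distances are on log2 CPM over the same 19 libraries, which also differ in the level of pan-neuronal genes. The part of that level in the distances was not tested, and they are given as a description.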

How the data were processed

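Poly(A) RNA was sequenced from pooled L3 to L5 dorsal root ganglia of 19 single mice in 4 groups, with stranded libraries per the labels' protocols. Reads were handled with cutadapt, HISAT2 and StringTie and build GRCm39, per the submitters' processing notes, which give no versions. The table deposited by the authors held raw whole-number counts and FPKM, which scale counts to gene length and depth. A further table deposited by the authors held equal counts for all 10 genes, and its rows without a gene name held 0.414% to 1.72% of a library.

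Counts were tested with edgeR 4.0.16 (R 4.3.3): TMM scaling, filterByExpr with a minimum count of 10, and the quasi-likelihood F test in 1 model of the 4 groups over 19 libraries (15 residual degrees of freedom). The two-sided p of each contrast were adjusted by Benjamini-Hochberg across the 22778 tested genes, with a threshold of 0.05. The SE is the log2 fold change divided by the root of F. The same test was repeated with each library scaled to 15 pan-neuronal genes. Family ratios were compared with exact permutation tests over mice. The fits were also run on simulated counts with known changes, and the outcome is not given here. The threshold for detection was 3 counts per library and covers counting error only.

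The members and the 16 other gene lists were chosen with earlier results of these data known. All members are named. Of other lists, up to 4 genes with the smallest adjusted p in either AP20187 comparison were eligible, plus defining markers and the 3 nearest genes of each member. Hmx1, Etv1, Etv5, Neurog1, Igll1 and Vpreb3 fall outside this rule and were named after their values were seen. The labels separate replicates by the mouse number alone, so p-values measure the spread between libraries of single mice. Whether the numbers follow batches is not given, and a batch would be part of that spread or of the group differences. Replicates differed by far more than sampling noise, with a chi-square per degree of freedom of at least 52.1. Promoters came from RefSeq (GRCm38.p6), another build than that of the files. Tlx2 and Pou4f3 promoters were not used here.

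Alternatives were DESeq2, no TMM, other filters, limma on log2(FPKM + 1), log2(FPKM + 0.1) or voom with sample weights, fewer groups, subsets of the DMM vehicle mice, a replicate block, other pan-neuronal references and leaving out each library.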

Additional observations from a re-analysis of the deposited data

Results flagged for a closer look

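Of 60 sets of values tested for a sample far from the others (40 of factor CPM and 20 of family ratios, by group), 5 were flagged, where chance gives about 1 in 20. In DMM vehicle mice, mouse 64 was far below the other 4 for Isl1 (39.3 CPM) and Isl2 (45.1 CPM). Naive vehicle mouse 4 had the highest Pou4f2 to Pou4f1 ratio of FPKM in its group, 0.233, and the lowest Pou4f3 to Pou4f2 ratio, 1.035. Naive AP20187 mouse 1 had a Pou4f3 to Pou4f1 ratio of 0.298, above the other 3 mice of its group.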

How the results depend on the processing

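No called change of a factor in the AP20187 comparisons reversed its direction under the alternatives run. The count of factors called with AP20187 in DMM mice was 8. It went to 2 against DMM vehicle mice 63 and 64 only, to 7 with no filter on low counts (5.51% of all genes called lower) or only the groups compared (8.26%), to 10 with limma voom and sample weights (25%) or against mice 32 to 34 only (18.8%), and to 5 to 9 on leaving out 1 library. In naive mice the count of 2 went to 0 with no filter on low counts (0.864% of all genes called lower) and to 1 with only the groups compared (2.71%). It went to 3 with DESeq2, both limma fits on FPKM and limma voom (6.23% to 10.2%), and to 0 to 3 on leaving out 1 library. The FPKM fits carry the lower deposited FPKM of naive AP20187 mice 1, 3 and 4, here and between the AP20187 groups. Between DMM and naive AP20187 mice the count of 1 (0.439% of all genes called lower) went to 0 with no filter (0.128%), with limma on log2(FPKM + 1) (0.852%) or log2(FPKM + 0.1) (0.785%) and with only the groups compared (0.463%), to 8 with limma voom and sample weights (7.41%), and to 0 to 1 on leaving out 1 library (0.0973% to 0.763%). Between vehicle mice the count of 0 went to 1 against DMM vehicle mice 63 and 64 only (0.442%). Relative to pan-neuronal genes, the count of 1 in DMM mice went to 2 without Nefl, Nefm, Map2 and Thy1 (41.7% of all genes called), to 2 with Avil and Prph only (58.4%), and to 0 to 1 on leaving out 1 library. The cause of these shifts was not tested. Naive groups share the numbers 1, 3, 4 and 5, but same-numbered mice did not deviate together (correlations of 0, 0.19, -0.08 and 0.09), and only mouse 3 correlated best with its own number. The fit with a replicate block used the 8 naive mice of these numbers alone and called 5 factors and 3.14% of all genes lower. The same 8 mice without the block, a fit chosen after the data were seen, gave 0 factors and 0.886%, against 2 and 2.57% in the model of all 19 libraries. Of 200 values of single factors in DMM mice under the alternatives, 174 kept direction and side of the threshold, 20 lost a call, 5 gained one and 1 changed sign with no call (Runx1, 0.43 against mice 63 and 64). The number of mice limits precision: the 95% interval of the Prdm12 change in DMM mice ran from -2.70 to -0.64.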
